A study of Mus musculus with 9 samples.

Results

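RNA levels of 10 antioxidant and selenoprotein genes were compared across 3 phagocyte populations of the mouse peritoneal wall. The genes were taken as a list of symbols: Selenop, Gpx1, Gpx4, Txnrd1, Srxn1, Prdx1, Gclm, Gsr, Nfe2l2 and Sod2. All 10 were among the 28764 symbols of the deposited table, and all 10 passed the filter on low values, which kept 10136 genes with at least 1 TPM (a share of all transcripts, corrected for their length and scaled to a fixed total) in at least 3 of the 9 libraries. The series asks which receptors for extracellular nucleotides these phagocytes express, and the genes described here were measured in the same libraries.

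All animals were Cx3cr1gfp/+ Ccr2rfp/+ mice, an F1 crossbreed in which 1 allele of Cx3cr1 carries a green and 1 allele of Ccr2 a red fluorescent reporter, so the groups share these alleles and there was no mouse without reporters. Each mouse received 50 µg of Dextran-Cascade Blue into a vein 1 day earlier and was perfused before the peritoneal wall was treated for 20 min with Liberase TL. From CD11b+Ly6G- cells, double-negative cells (Dextran+, MHCII-, neither reporter), cells with the red CCR2 reporter alone (MHCII+, here RFP+ cells) and cells with the green CX3CR1 reporter alone (MHCII+, here GFP+ cells) were sorted. Double-negative cells thus differed from both reporter populations in MHCII and in the stated Dextran gate as well as in the reporter. In comparisons with double-negative cells these cannot be told apart. The labels describe the double-negative cells as the main part of the sessile resident macrophages, the RFP+ cells as migratory tissue monocytes and the GFP+ cells as sessile resident macrophages. The labels do not give the age or sex of the mice. Each population had 3 libraries, named by the sort labels 1, 2A and 2B, from 1 ng of total RNA and paired reads of 75 bases. P-values therefore rest on 3 sorted samples per population.

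Phagocytes make reactive oxygen species and are exposed to them, and several enzyme systems remove peroxides and superoxide. Glutathione peroxidases reduce peroxides with glutathione, peroxiredoxins do so with thioredoxin, and superoxide dismutases turn superoxide into hydrogen peroxide. Some of these enzymes carry selenocysteine, an amino acid placed at a UGA codon that otherwise ends translation, and the transcription factor NRF2, encoded by Nfe2l2, drives many genes of the glutathione and thioredoxin systems.

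Of the 10 genes, 4 encode selenoproteins, and their coding sequences are shown because the UGA codon is the feature that sets them apart from the others. In the GENCODE M21 coding sequences (GRCm38), Selenop held 10 selenocysteine codons in 380 codons, whereas Gpx1, Gpx4 and Txnrd1 held 1 each. The other 6 genes held no in-frame TGA before their stop codon. The selenocysteine codons are in capitals below, with 18 transcript bases on either side where the coding sequence allows, and with all 4 such codons of the end of Selenop in the second line.
Selenop, codon 59 (chr15:3274848-3274850, + strand): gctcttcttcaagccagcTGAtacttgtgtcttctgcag
Selenop, codons 365 to 380 (chr15:3279660-3279707, + strand): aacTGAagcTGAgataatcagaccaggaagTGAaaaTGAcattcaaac
Gpx1, codon 47 of 201 (chr9:108339451-108339453, + strand): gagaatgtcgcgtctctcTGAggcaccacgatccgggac
Gpx4, codon 73 of 197 (chr10:80054737-80054739, + strand): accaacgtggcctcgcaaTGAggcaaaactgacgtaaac
Txnrd1, codon 498 of 499 (chr10:82896037-82896039, + strand): atcctccagtctggctgcTGAggt
The coordinates are those of the selenocysteine codon itself, except for the end of Selenop, where they span the whole stretch. In Selenop 1 codon lies in the first part of the coding sequence and 9 lie between codons 259 and 377, in Txnrd1 the codon is the last but 1 before the stop, and in both glutathione peroxidases it lies in the first part.

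**Figure D1:**
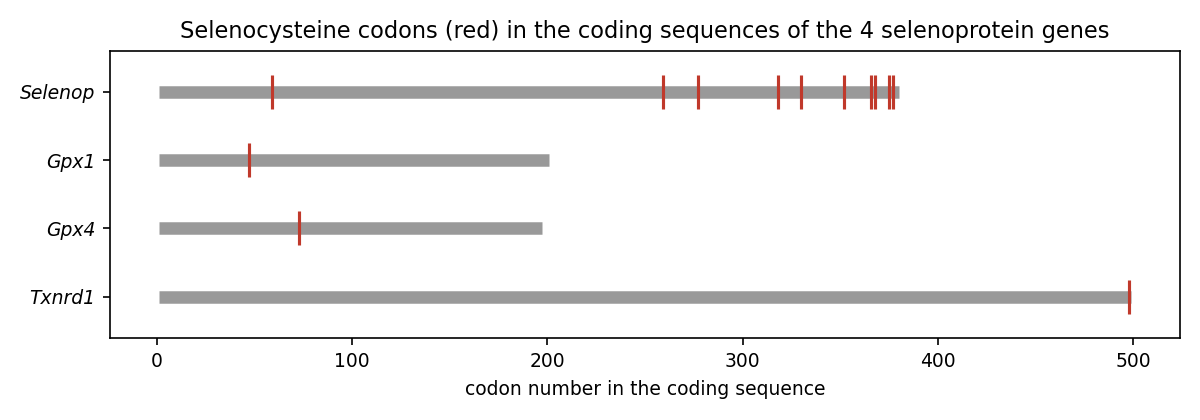
Position of selenocysteine codons (red marks) along the coding sequences (grey bars) of the 4 selenoprotein genes; the horizontal axis is the codon number. Selenop has 10 such codons, 9 of them from codon 259 on, and the other 3 genes have 1 each.

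The library labels were read against the reporter genes before the results. Ccr2 was 95.4 to 115 TPM in RFP+ libraries and 1.65 to 6.68 TPM in the 6 others, and Cx3cr1 was 4.13 to 16.4 TPM in GFP+ libraries and listed at 0 in the others. Summed TPM of 10 resident macrophage markers was 2135 to 2413 in double-negative, 781 to 1049.6 in RFP+ and 1616 to 1944 in GFP+ libraries, and each of the 10 was at 1 TPM or more in every library. Summed TPM of 8 monocyte markers was 1133 to 1513, 2033 to 2552 and 987 to 1188, and of 8 dendritic cell markers 27.5 to 63.4, 110.3 to 158 and 11.8 to 16.1, in the same order. The 7 fibroblast markers summed to 13.4 to 114, 13.3 to 61.1 and 49.2 to 131 TPM and the 6 skeletal muscle markers to 216 to 276, 32.2 to 757 and 161 to 1284 TPM, so both were present and overlapped between populations. For muscle, RFP+ cells overlapped the other populations only through sort 2A. There the sum was 757 TPM in RFP+ cells, against 37.7 and 32.2 TPM in RFP+ 1 and 2B, which were below every other library. In GFP+ cells it was 1284 TPM in sort 2A, against 225 and 161 TPM in GFP+ 1 and 2B. Double-negative and GFP+ cells overlapped without sort 2A as well. RFP+ 2A and GFP+ 2A thus stood apart from the other libraries. With both left out, a choice made after seeing the data, 7 of the 8 calls among the 10 genes described below held, and Txnrd1 in GFP+ against RFP+ cells did not (adjusted p = 0.13). Mitochondrially encoded mRNA summed to 12898 to 19514, 7491 to 10259 and 8914 to 15396 TPM. This sum is partial, over the 8 symbols listed, since ND1, ND2, ND4, CYTB and ATP8 were not listed. All listed values together came to 278579 to 382828 TPM, lowest in the 3 GFP+ libraries. Depth is unknown, since TPM keeps no read count. In such bulk samples, fewer cells of a type and less RNA per cell cannot be told apart.

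Levels were compared as log2(TPM + 1) with limma, which fits all genes kept, and p-values were adjusted by the Benjamini-Hochberg method over all of them. A gene is called where its adjusted p is below 0.05, and fold changes on this scale understate those of low genes. Each log2 fold change is RFP+ minus double-negative, GFP+ minus double-negative or, between both reporter populations, GFP+ minus RFP+ cells. Because TPM are shares of a total, a scaling can shift all genes together. The median log2 fold change of all genes was 0.086 in RFP+ against double-negative, -0.033 in GFP+ against double-negative and -0.108 in GFP+ against RFP+ cells. After rescaling the listed values to a common total the same medians were -0.001, 0.157 and 0.176, and after a rescaling without Siglece (71444 to 114316 TPM by population mean), Rn18s and mitochondrial genes they were -0.097, 0.044 and 0.161. The share of called genes that were higher moved with it, from 60.2% to between 43.1% and 52.3% in the first comparison, from 42.0% to between 50.0% and 69.4% in the second and from 34.1% to between 45.2% and 62.5% in the third, over the 4 scaling alternatives. The 3 comparisons share libraries, so their results are not independent of each other.

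In RFP+ against double-negative cells, 3 of the 10 genes were called, with Gpx1 and Sod2 higher and Selenop lower. Among all genes tested 24.8% were called, 14.9% higher and 9.88% lower, so 3 of 10 is near the background. Between GFP+ and double-negative cells only Selenop was called, lower, where 2.77% of all genes were called, 1.16% higher and 1.61% lower. Between both reporter populations (GFP+ against RFP+), 4 genes were called, with Selenop higher and Gpx1, Txnrd1 and Sod2 lower, where 26.3% of all genes were called, 8.96% higher and 17.3% lower, so 4 of 10 is above the background by few genes. That count was 2 with no filter on low values, after both rescalings, and without RFP+ 2A or GFP+ 2B, so it did not stay above the background. The median log2 fold change of the 10 genes was 0.04, -0.12 and -0.05 in these comparisons, against 0.09, -0.03 and -0.11 over all genes. Gpx4, Srxn1, Prdx1, Gclm, Gsr and Nfe2l2 were called in none of them.

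**Figure D2:**
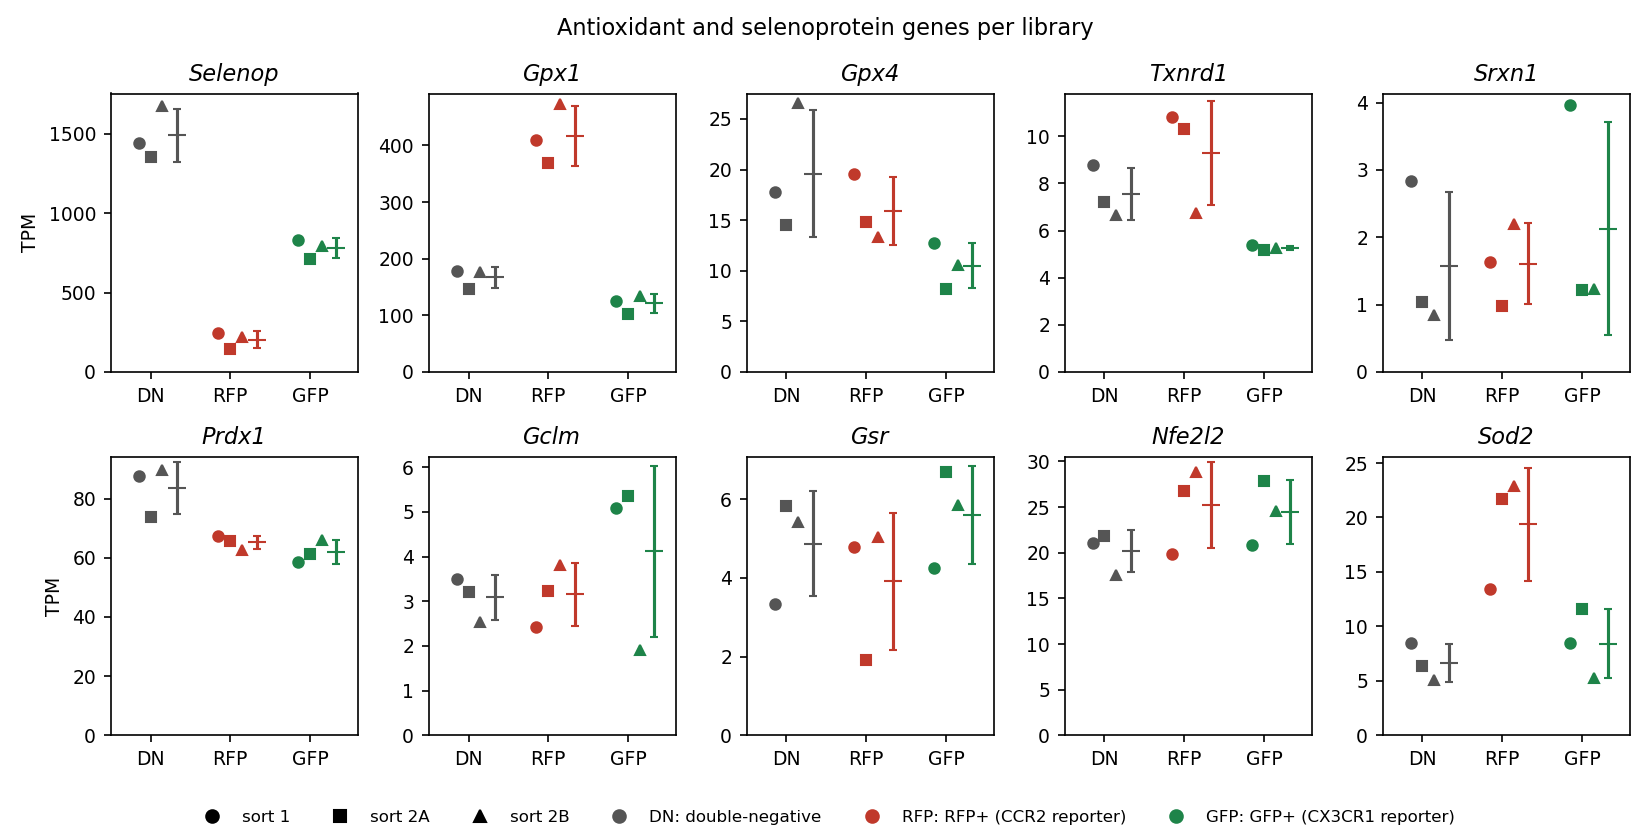
TPM (vertical axis, from 0, own scale per gene) of the 10 genes in each library, by population (horizontal axis; DN double-negative, RFP and GFP the reporter populations), with marker shapes for the sort labels; the dash and bar beside the points are the mean ± SD of 3 libraries. Selenop is highest in the 3 double-negative and lowest in the 3 RFP+ libraries, and Gpx1 and Sod2 are highest in the 3 RFP+ libraries.

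Selenop (chromosome 15, 3268547 to 3280508, + strand) encodes selenoprotein P, a secreted protein that carries selenium between tissues. It was 1439, 1353 and 1677 TPM in the double-negative libraries of sorts 1, 2A and 2B (1489.8 ± 168, SD, n = 3). It was 248, 147 and 218 TPM in the RFP+ libraries (204 ± 51.9) and 832, 713 and 796 TPM in the GFP+ libraries (781 ± 61.1). The 3 populations did not overlap, with double-negative cells highest and RFP+ cells lowest. Against double-negative cells the mean was 7.3-fold lower in RFP+ cells (log2 fold change -2.89, SE 0.192, adjusted p = 5.14e-06) and 1.91-fold lower in GFP+ cells (-0.93, SE 0.192, adjusted p = 0.0314). With GFP+ set against RFP+ cells, it was 3.83-fold higher (1.96, adjusted p = 5.25e-05). The calls that involve RFP+ cells held in all 20 alternatives. The one between GFP+ and double-negative cells kept its direction in all 20 but was lost in 11, among them no filter on low values (adjusted p = 0.133), median-of-ratios scaling (0.057), a common listed total (0.0884) and no variance trend (0.0603). It was also lost without double-negative 1, 2A or 2B, without GFP+ 1, 2A or 2B, or without RFP+ 2B, with adjusted p of 0.0523 to 0.132. The resident macrophage marker sums given above were in the same order over the populations as Selenop, and their part in this result was not tested. Of the 2842 exon bases of Selenop, 439 lie over exons of Ccdc152 on the opposite strand, and how strand was treated in counting is unknown here, so reads there cannot be told apart.

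Selenop was also among the most abundant of all listed genes. It ranked 16 to 19 of 28764 symbols in double-negative, 28 to 31 in GFP+ and 113 to 203 in RFP+ libraries. Of the summed TPM of the 10 genes it made up 81.2 to 83.5%, 75.7 to 77.2% and 22.2 to 31.0% in the same order of populations. In RFP+ libraries the first place within the 10 was held by Gpx1 instead.

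Gpx1 (chromosome 9, 108338903 to 108340343, + strand) encodes the main cytosolic glutathione peroxidase. It was 410.2, 369 and 473 TPM in RFP+ libraries (417 ± 52.7), 179, 146 and 176 TPM in double-negative libraries (167 ± 18.6) and 126, 102 and 134 TPM in GFP+ libraries (121 ± 16.9). Every RFP+ library was above every other, and the 3 GFP+ libraries were below the 3 double-negative ones. The mean was 2.5-fold higher in RFP+ than in double-negative cells (log2 fold change 1.31, SE 0.157, adjusted p = 0.000161) and 3.45-fold lower in GFP+ than in RFP+ cells (-1.78, adjusted p = 2.81e-05), and both calls held in all 20 alternatives. Between GFP+ and double-negative cells the gene was not called (-0.47, 95% interval -0.82 to -0.12, adjusted p = 0.182). Monocyte and dendritic cell marker sums were highest in the same libraries, and their part in the result was not tested.

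Since a ratio of both genes within a library does not depend on the scaling of that library, it was read as well. It is made from the levels given above and is not separate evidence. The ratio of Selenop to Gpx1 was 8.03 to 9.52 in double-negative, 5.92 to 6.99 in GFP+ and 0.398 to 0.604 in RFP+ libraries. The populations did not overlap, and Selenop exceeded Gpx1 in the 6 double-negative and GFP+ libraries and was below it in the 3 RFP+ libraries.

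**Figure D3:**
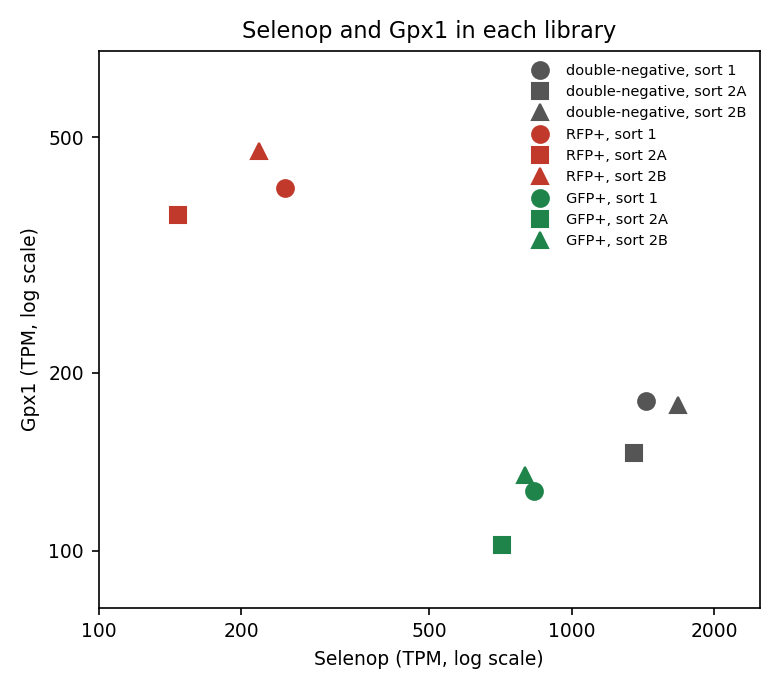
Selenop (horizontal axis, TPM, log scale) against Gpx1 (vertical axis, TPM, log scale) in the 9 libraries, with colours for populations and marker shapes for sort labels. RFP+ libraries lie at 147 to 248 TPM of Selenop and 369 to 473 TPM of Gpx1, apart from the other 6.

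Gpx4 (chromosome 10, 80047166 to 80056439, + strand) encodes the glutathione peroxidase that reduces lipid peroxides in membranes. It was 17.8, 14.5 and 26.6 TPM in double-negative libraries (19.6 ± 6.31), 19.6, 14.8 and 13.3 TPM in RFP+ libraries (15.9 ± 3.33) and 12.7, 8.24 and 10.6 TPM in GFP+ libraries (10.5 ± 2.21). The GFP+ libraries were the 3 lowest, and the other populations overlapped. The gene was not called in GFP+ against double-negative cells (log2 fold change -0.82, 95% interval -1.37 to -0.27, adjusted p = 0.13) or against RFP+ cells (-0.56, -1.11 to -0.01, adjusted p = 0.128), nor in RFP+ against double-negative cells (-0.26, -0.81 to 0.29, adjusted p = 0.504). Of all 75-base stretches of its transcripts 29.8% also occur in Gpx4-ps2, a pseudogene copy whose symbol was not in the table, so its level is uncertain.

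Txnrd1 (chromosome 10, 82833951 to 82897712, + strand) encodes the cytosolic thioredoxin reductase, which returns thioredoxin to its reduced form. It was 8.8, 7.2 and 6.67 TPM in double-negative libraries (7.56 ± 1.11), 10.8, 10.3 and 6.74 TPM in RFP+ libraries (9.29 ± 2.21) and 5.37, 5.19 and 5.26 TPM in GFP+ libraries (5.27 ± 0.0897). The 3 GFP+ libraries were lowest and nearly equal. The mean was 1.76-fold lower in GFP+ than in RFP+ cells (log2 fold change -0.69, SE 0.199, adjusted p = 0.028). That call was lost in 11 of 20 alternatives: under all 4 scalings (adjusted p = 0.0714 to 0.222), with no filter (0.057), with only the populations compared (0.0551), and without RFP+ 1 or 2A or GFP+ 1, 2A or 2B (0.0559 to 0.102). Neither RFP+ (0.25, 95% interval -0.19 to 0.69, adjusted p = 0.427) nor GFP+ cells (-0.44, adjusted p = 0.336) were called against double-negative cells.

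Srxn1 and Prdx1 belong to the same branch. Prdx1 (chromosome 4, 116685544 to 116700822, + strand) encodes a cytosolic peroxiredoxin, and Srxn1 (chromosome 2, 152105516 to 152111376, + strand) encodes sulfiredoxin, which repairs peroxiredoxins that were oxidised too far. Prdx1 was 87.8, 73.7 and 89.7 TPM in double-negative libraries (83.7 ± 8.75), 67.3, 65.8 and 62.7 TPM in RFP+ libraries (65.2 ± 2.35) and 58.5, 61.4 and 66.2 TPM in GFP+ libraries (62.0 ± 3.92). Double-negative libraries were the 3 highest, and those of the other populations overlapped. With RFP+ set against double-negative cells, Prdx1 was not called as deposited (log2 fold change -0.35, 95% interval -0.64 to -0.06, adjusted p = 0.0752), but it was called lower in 5 of 20 alternatives, under all 4 scalings (adjusted p = 0.00746 to 0.0272) and with a filter at 5 TPM (0.0477). With GFP+ set against double-negative cells, it was -0.42 (-0.71 to -0.14, adjusted p = 0.134). Between both reporter populations it was -0.07 (-0.36 to 0.21, adjusted p = 0.722), with the sign reversed under all 4 scalings.

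Srxn1 was the lowest of the 10 genes in each population by its mean. It was 2.84, 1.04 and 0.843 TPM in double-negative libraries, 1.63, 0.986 and 2.2 TPM in RFP+ and 3.96, 1.21 and 1.23 TPM in GFP+ libraries. The library of sort 1 was the highest in double-negative and in GFP+ cells, and the populations overlapped. Log2 fold changes were 0.07 (95% interval -0.78 to 0.92) in RFP+ and 0.25 (-0.6 to 1.1) in GFP+ against double-negative cells, and 0.18 (-0.67 to 1.03) between both reporter populations, with adjusted p of 0.925, 0.819 and 0.771. The first of these changed sign after rescaling without Siglece, Rn18s and mitochondrial genes.

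Gclm and Gsr serve the glutathione pool. Gclm (chromosome 3, 122245557 to 122270732, + strand) encodes the modifier subunit of glutamate-cysteine ligase, the first enzyme of glutathione synthesis. It was 3.51, 3.21 and 2.54 TPM in double-negative libraries, 2.42, 3.23 and 3.82 TPM in RFP+ and 5.08, 5.35 and 1.92 TPM in GFP+ libraries. Within GFP+ cells, sort 2B was below every other library and the other two were above every other. Log2 fold changes were 0.02 (95% interval -0.65 to 0.69), with the sign reversed under all 4 scalings, in RFP+ and 0.25 (-0.42 to 0.92) in GFP+ against double-negative cells, and 0.23 (-0.44 to 0.9) between both reporter populations. None was called (adjusted p = 0.979, 0.764 and 0.622). Its exons share 296 of 6291 bases with exons of Gm17494 on the opposite strand. Of its 75-base stretches 2.84% also occur in transcripts of Ppia (at most 344 TPM), so part of its low level is uncertain.

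Gsr (chromosome 8, 33652523 to 33698163, + strand) encodes glutathione reductase, which restores reduced glutathione. It was 3.34, 5.83 and 5.43 TPM in double-negative libraries (4.87 ± 1.34), 4.79, 1.91 and 5.03 TPM in RFP+ (3.91 ± 1.74) and 4.25, 6.68 and 5.86 TPM in GFP+ libraries (5.59 ± 1.24). All populations overlapped, and RFP+ 2A was the lowest library. Log2 fold changes were -0.3 (95% interval -0.99 to 0.39) and 0.18 (-0.51 to 0.87) against double-negative cells and 0.48 (-0.21 to 1.17) between both reporter populations, with adjusted p of 0.544, 0.846 and 0.291. Each interval reaches from a lower to a higher level, so neither direction is shown.

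Nfe2l2 (chromosome 2, 75675513 to 75704641, - strand), which encodes NRF2, was 21.1, 21.8 and 17.6 TPM in double-negative libraries (20.2 ± 2.26), 19.9, 26.8 and 28.9 TPM in RFP+ libraries (25.2 ± 4.7) and 20.9, 27.9 and 24.6 TPM in GFP+ libraries (24.5 ± 3.49). All populations overlapped. Log2 fold changes were 0.3 (95% interval -0.11 to 0.7, adjusted p = 0.285) and 0.26 (-0.14 to 0.67, adjusted p = 0.554) against double-negative cells. Between both reporter populations the change was -0.03 (-0.44 to 0.37, adjusted p = 0.915), with the sign reversed under all 4 scalings. NRF2 is held in check chiefly through the stability of the protein, which RNA levels do not measure.

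Sod2 (chromosome 17, 13006846 to 13040063, + strand) encodes the manganese superoxide dismutase of mitochondria. It was 13.4, 21.7 and 22.9 TPM in RFP+ libraries (19.4 ± 5.19), 8.49, 6.32 and 5.11 TPM in double-negative libraries (6.64 ± 1.71) and 8.45, 11.6 and 5.27 TPM in GFP+ libraries (8.42 ± 3.15). Every RFP+ library was above every other, and the other populations overlapped. The mean was 2.92-fold higher in RFP+ than in double-negative cells (log2 fold change 1.4, SE 0.294, adjusted p = 0.00554), which held in all 20 alternatives. It was 2.3-fold lower in GFP+ than in RFP+ cells (-1.13, SE 0.294, adjusted p = 0.017), which was lost in 6 of 20: with no filter (adjusted p = 0.0548), after both rescalings (0.0827 and 0.0644) and without RFP+ 2A (0.0589), RFP+ 2B (0.0693) or GFP+ 2B (0.0532). Relative to double-negative cells, in GFP+ cells it was 0.27 (95% interval -0.38 to 0.92, adjusted p = 0.732). The partial sum of mitochondrially encoded mRNA given above was 7491 to 10259 TPM in RFP+ libraries, where Sod2 was highest, and 8914 to 19514 TPM in the others. Its part in the result was not tested. Of the 75-base stretches of Sod2 12.4% also occur in transcripts of Rps6ka2 (at most 7.2 TPM), so part of its level is uncertain.

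**Figure D4:**
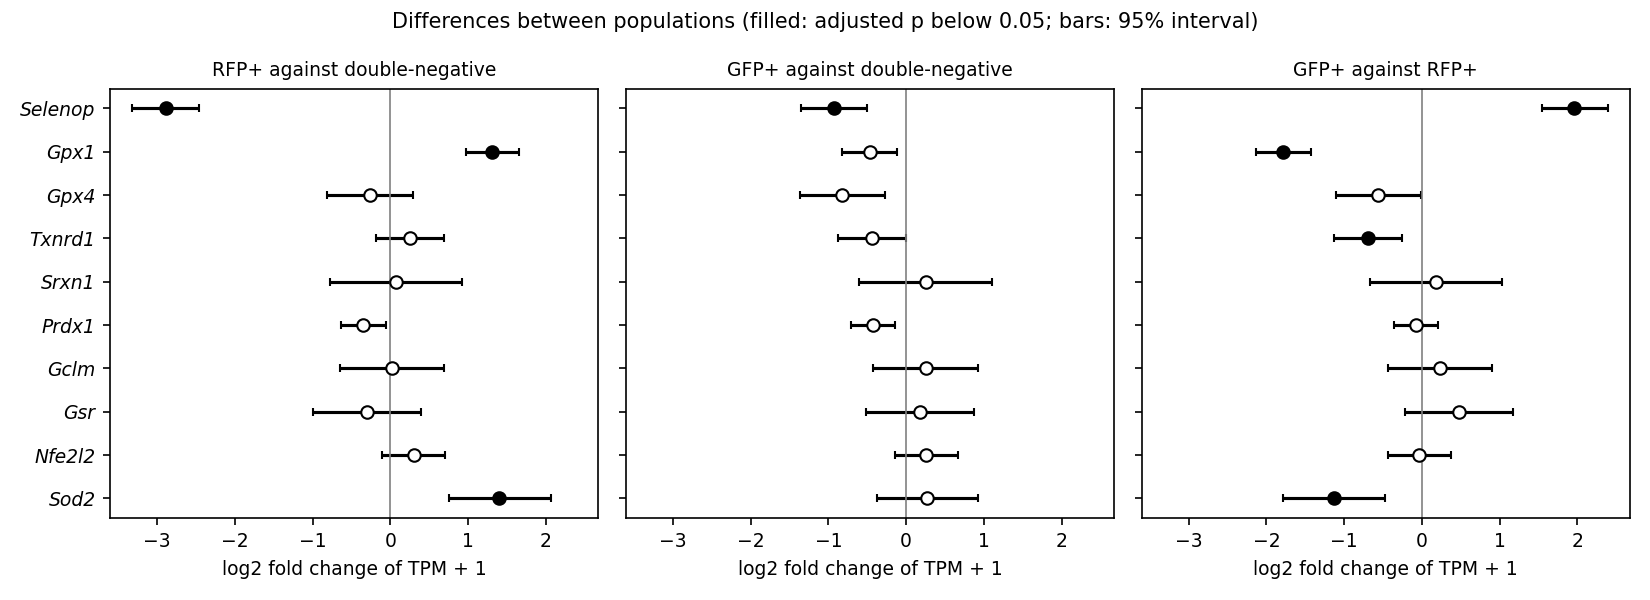
Log2 fold change of TPM + 1 (horizontal axis) of the 10 genes (vertical axis) in the 3 comparisons (panels), with 95% intervals as bars; filled points were called. Selenop, Gpx1 and Sod2 lie farthest from 0 in both comparisons with RFP+ cells, and the only filled point between GFP+ and double-negative cells is Selenop at -0.93.

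Within each population the order of the genes by mean was alike at the top and at the bottom. In double-negative and GFP+ cells Selenop, Gpx1, Prdx1 and Nfe2l2 followed each other from the highest down, and in RFP+ cells Gpx1, Selenop, Prdx1 and Nfe2l2 did so. The libraries of neighbours among these 4 did not overlap in any population. Further down, the ranges of neighbours mostly overlapped, such as Nfe2l2 and Gpx4 (17.6 to 21.8 and 14.5 to 26.6 TPM) in double-negative cells and Nfe2l2 and Sod2 (19.9 to 28.9 and 13.4 to 22.9 TPM) in RFP+ cells. Sod2 stood in place 7 in double-negative, 5 in RFP+ and 6 in GFP+ cells. Gclm and Srxn1 were in places 9 and 10 in all 3 populations.

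Promoters were searched for the core of the antioxidant response element, the sequence that NRF2 binds with small MAF proteins, since several of the 10 genes are textbook NRF2 targets. The motif TGACNNNGC was sought on both strands of RefSeq promoter windows of 300 bases (250 before to 50 after the start, GRCm38.p6), where overlap with other motifs was not treated. It was found in 12.4% of 32851 windows, and in 5 of the 16 windows of the 10 genes (31.2%). These 5 windows belong to 5 genes, and Gsr had no entry. By gene, 5 of the 9 with a window held a match (55.6%), against 14.0% of 27025 genes. These shares were not tested, and the list holds textbook NRF2 targets. The match of Txnrd1 lies in its window 2, at a start inside the span of the gene given above. No other window of Txnrd1 held a match. Each match is shown in capitals on the strand of the gene with 10 bases on either side; where the motif lies on the opposite strand it reads as GCNNNGTCA.
Txnrd1 (chr10:82859104-82859132, + strand): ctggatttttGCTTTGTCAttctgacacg
Srxn1 (chr2:152105542-152105570, + strand): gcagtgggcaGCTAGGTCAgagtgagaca
Prdx1 (chr4:116685456-116685484, + strand): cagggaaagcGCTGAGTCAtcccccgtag
Gclm (chr3:122245413-122245441, + strand): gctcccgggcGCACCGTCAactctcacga
Nfe2l2 (chr2:75704885-75704913, - strand): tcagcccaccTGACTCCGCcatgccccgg
Of these 5 genes only Txnrd1 was called in a comparison. Selenop, Gpx1 and Sod2, which account for the other 7 calls, had no match in their windows, which says only that these letters are not there.

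Other genes of the same systems were read from lists, some of which share genes. Their counts stand beside all genes tested, of which 24.8% were called in RFP+ against double-negative cells. That share was 2.77% in GFP+ against double-negative and 26.3% in GFP+ against RFP+ cells. The medians of all genes were 0.09, -0.03 and -0.11 in the same order. In the first list below, 3 of 14 in RFP+ against double-negative cells is near the background. Of 18 other selenoprotein genes 14 were kept. Between RFP+ and double-negative cells 1 was lower and 2 were higher (median log2 fold change 0.10). Gpx3, the secreted plasma glutathione peroxidase, was 8.22 ± 1.43 TPM in double-negative, 1.49 ± 0.486 in RFP+ and 5.07 ± 1.02 in GFP+ cells, and so like Selenop was lower in RFP+ cells (-1.9, adjusted p = 0.000136). Selenoi, an enzyme of phospholipid synthesis, was higher there (1.33, adjusted p = 0.00106), as was Selenot, a protein of the endoplasmic reticulum (0.96, adjusted p = 0.0113). In GFP+ against RFP+ cells 1 was higher and 4 were lower (median -0.40): Gpx3 was higher (1.29, adjusted p = 0.00175), and Selenoi (-1.31, adjusted p = 0.0012), the methionine sulfoxide reductase Msrb1 (-1.13, adjusted p = 0.00976) and the selenophosphate synthetase Sephs2 (-0.75, adjusted p = 0.0246) were lower. The count of 5 was 3 without RFP+ 2A or 2B. Sephs2 was lost after both rescalings and without RFP+ 2A or 2B or GFP+ 2A (adjusted p = 0.0666 to 0.0874 for these libraries). It was also lost with no filter (0.0679) and with only the populations compared (0.055). Msrb1 was lost after the rescaling without Siglece, Rn18s and mitochondrial genes (0.0501). In GFP+ against double-negative cells limma called 0 of 14 (1 at an unadjusted p below 0.05; median -0.25). Selenof (-0.21, 95% interval -0.54 to 0.12, with the sign reversed at a common listed total) and Selenok (-0.3, -0.84 to 0.23) were the most abundant of them.

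Of 11 genes that make selenocysteine or supply selenium 8 were kept, and 1, 0 and 2 were called in the 3 comparisons in the order above (the 0 with 2 at an unadjusted p below 0.05 in limma). Sepsecs, the enzyme that completes selenocysteine on its transfer RNA, was 0.9 on the log2 scale in RFP+ against double-negative cells (adjusted p = 0.048, and 0.0724 with the sort label as a block). It was lost in all 4 scalings, with no filter (adjusted p = 0.127), with a pseudocount of 0.1 (0.07) and without any 1 of 6 libraries (double-negative 1, 2A and 2B, RFP+ 1 and 2A, GFP+ 2B, adjusted p = 0.0567 to 0.167). It was lower in GFP+ than in RFP+ cells (-1.19, adjusted p = 0.013, and 0.0534 without RFP+ 1), as was the seryl-tRNA synthetase gene Sars (-1.09, adjusted p = 0.00207). Between GFP+ and double-negative cells Secisbp2l was 0.54 (95% interval 0.13 to 0.95, adjusted p = 0.187) and Sars -0.51 (-0.94 to -0.09, adjusted p = 0.229).

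Of 26 genes of glutathione synthesis and use 18 were kept, and in RFP+ against double-negative cells 3 were higher and 6 lower (median -0.12). The count of 9 was 4 or 5 without any 1 of the 6 libraries compared. The glutaredoxin gene Glrx was 6.07 TPM in double-negative and 26.9 TPM in RFP+ cells by mean (1.99, adjusted p = 9.27e-05). The glutathione transferase genes Mgst1 (-2.22, adjusted p = 7.43e-05), Gstm1 (-1.72, adjusted p = 4.54e-05) and Gstt2 (-0.92, adjusted p = 0.018) were lower. The call of Gstt2 was lost with no filter (adjusted p = 0.0702) and without double-negative 2A or 2B or RFP+ 1 or 2B (0.0534 to 0.0784). With GFP+ set against double-negative cells, 3 transferase genes were lower and none higher (median -0.20). Gstp1 fell from 15.2 to 3.91 TPM by mean (-1.78, adjusted p = 0.00386) and Mgst1 from 23.9 to 6.4 TPM (-1.78, adjusted p = 0.00355). Gstm1 was lower as well (-0.78, adjusted p = 0.0396), a call lost under all 4 scalings and without any double-negative library, RFP+ 1 or 2B, or GFP+ 2A or 2B (adjusted p = 0.0586 to 0.17). That call was also lost with no filter (0.0891), with only the populations compared (0.0755) and with no variance trend (0.0667). Between both reporter populations (GFP+ against RFP+), 2 were higher and 3 lower (median -0.14), 3 in all without RFP+ 2A. Gstm1 was higher (0.94, adjusted p = 0.00247), and Glrx (-1.94, adjusted p = 0.000126), Gstp1 (-1.68, adjusted p = 0.000612) and Gsto1 (-1.48, adjusted p = 0.0171) were lower. The call of Gsto1 was lost after both rescalings, with no filter (0.0608) and without RFP+ 2A or GFP+ 1 or 2B (adjusted p = 0.0587 to 0.0614 for these libraries).

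Of 17 thioredoxin and peroxiredoxin genes 15 were kept. In RFP+ against double-negative cells 3 were higher and 3 lower (median 0.20). Prdx5, a peroxiredoxin of mitochondria and cytosol, was higher (1.16, adjusted p = 0.000365), as was Txnl1 (0.78, adjusted p = 0.00619). The thioredoxin inhibitor Txnip (-1.21, adjusted p = 3.31e-05) and the sestrin gene Sesn1 (-1.8, adjusted p = 0.000753) were lower. Relative to double-negative cells, in GFP+ cells Txnip alone was called (-0.56, adjusted p = 0.0288; median -0.13). It was lost under all 4 scalings, with the sort label as a block (adjusted p = 0.054), with only the populations compared (0.0692), with no variance trend (0.0955) and without double-negative 1, 2A or 2B, RFP+ 2B or GFP+ 1 or 2A (0.0523 to 0.107). With GFP+ set against RFP+ cells, 2 were higher and 5 lower (median -0.34), 7 in all, which was 4 without double-negative 1 or RFP+ 2A and 3 without RFP+ 2B. Sesn1 (1.78, adjusted p = 0.00086) and Txnip (0.65, adjusted p = 0.0019) were higher, and Prdx5 (-1.1, adjusted p = 0.000595) and the mitochondrial thioredoxin gene Txn2 (-0.8, adjusted p = 0.0182) were lower, Txn2 not after both rescalings, quantile normalization, or without RFP+ 2B or GFP+ 1 (0.0553 to 0.0701 for these libraries).

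The 9 other genes of superoxide and peroxide removal were all kept. With RFP+ set against double-negative cells, 2 were higher and 2 lower (median -0.06). Sod1, the cytosolic superoxide dismutase, was 29.7 ± 0.113 TPM in double-negative, 66.0 ± 3.51 in RFP+ and 26.3 ± 4.95 in GFP+ cells and so, like Sod2, highest in RFP+ cells (1.13, adjusted p = 0.000365). The mitochondrial carrier gene Ucp2 was higher too (0.99, adjusted p = 0.00266). The paraoxonase gene Pon3 (-1.89, adjusted p = 3.6e-05) and Oxr1 (-0.62, adjusted p = 0.0389) were lower. Oxr1 was not called with no filter (adjusted p = 0.0747) or without double-negative 1 or 2A or RFP+ 1, 2A or 2B (0.0655 to 0.142). In GFP+ against RFP+ cells Pon3 was higher (1.73, adjusted p = 7.14e-05), and Sod1 (-1.31, adjusted p = 0.000154) and Ucp2 (-0.81, adjusted p = 0.00846) were lower (median -0.02), Ucp2 not after both rescalings or quantile normalization. In GFP+ against double-negative cells limma called 0 of 9, with 0 at an unadjusted p below 0.05 (median -0.02). Sod1 was -0.19 (95% interval -0.53 to 0.15, with the sign reversed at a common listed total) and Ucp2 0.18 (-0.23 to 0.59).

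Of 12 genes that control NRF2 11 were kept. Between RFP+ and double-negative cells Mafg, a small MAF partner of NRF2, was called lower (-0.65, adjusted p = 0.0459; median -0.02). It was not called with the sort label as a block (adjusted p = 0.0608), with no filter (0.0948) or without any 1 of 7 libraries, the 6 compared and GFP+ 2B (0.0533 to 0.129). Between both reporter populations (GFP+ against RFP+), Rbx1, a part of the ubiquitin ligase that acts on NRF2, was lower (-0.82, adjusted p = 0.015, and 0.0593 without RFP+ 1), but not after both rescalings or quantile normalization. Bach1, a repressor at the same promoter element, was lower as deposited (-0.44, adjusted p = 0.0477; median of the list 0.03), but in only 4 of 20 alternatives. With the block its adjusted p was 0.071, and without any 1 of the 9 libraries other than RFP+ 1 it was 0.0561 to 0.15. Between GFP+ and double-negative cells limma called 0 of 11 (1 at an unadjusted p below 0.05; median -0.06), with Rbx1 at -0.53 (95% interval -1.0 to -0.07) and Bach1 at -0.06 (-0.38 to 0.27, with the sign reversed in 3 of 4 scalings).

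Of 24 further NRF2 target genes 18 were kept, and they did not move one way. In RFP+ against double-negative cells 5 were higher and 6 lower (median 0.17). The count of 11 was 7 without double-negative 1 or 2A and 6 without RFP+ 2B. Tkt, a transketolase of the pentose phosphate pathway, was higher (1.39, adjusted p = 0.000323). Hmox1, which breaks down haem, was 84.4 ± 9.71 TPM in double-negative, 32.6 ± 5.83 in RFP+ and 38.6 ± 1.18 in GFP+ cells and so lower in both reporter populations (-1.35, adjusted p = 0.000133, and -1.1, adjusted p = 0.00471). Blvrb, a biliverdin reductase of haem breakdown, was lower in RFP+ cells (-1.85, adjusted p = 0.00047). With GFP+ set against double-negative cells, 3 were lower and none higher (median -0.28): Hmox1, Gstm1 as given above and the ferritin light chain gene Ftl1 (-0.63, adjusted p = 0.0381). Ftl1 was lost under all 4 scalings, with the block (adjusted p = 0.059) and without any library of the 6 compared or RFP+ 1 (0.0659 to 0.163). The call of Ftl1 was also lost with no filter (0.133), with only the populations compared (0.0625) and with no variance trend (0.0957). The count of 3 NRF2 target genes was 1 without double-negative 1, 2A or 2B, RFP+ 1 or GFP+ 2A or 2B. With GFP+ set against RFP+ cells, 2 were higher and 6 lower (median -0.17), 5 in all without RFP+ 2B. Tkt (-1.15, adjusted p = 0.0012), Pgd (-0.93, adjusted p = 0.00841) and G6pdx (-0.9, adjusted p = 0.0023), all of the pentose phosphate pathway that supplies NADPH, were lower, with Pgd lost after both rescalings.

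On the side of oxidant production, 7 of 13 genes of the phagocyte NADPH oxidase and other oxidant sources were kept. With RFP+ set against double-negative cells, 4 were higher and 2 lower, with a median of 0.67. Those that rose include the genes of the oxidase subunit p22phox (Cyba, 1.22, adjusted p = 0.00514), of a cytosolic activator (Ncf1, 0.91, adjusted p = 0.00155) and of the GTPase Rac2 (1.52, adjusted p = 0.000343). The 2 lower genes, named after their values were seen, were Cybb, the catalytic subunit (-0.4, adjusted p = 0.0388), and the xanthine dehydrogenase gene Xdh (-0.47, adjusted p = 0.05, just under the threshold before rounding). Neither was called with no filter, with the sort label as a block, with no variance trend, or without any 1 of the 6 libraries compared or GFP+ 1 (adjusted p = 0.0503 to 0.123 for Cybb and 0.0569 to 0.157 for Xdh without these libraries), and Xdh was also lost with a pseudocount of 0.1 (0.0511). In GFP+ against RFP+ cells 1 was higher and 4 lower (median -0.70), the lower ones including Rac2 (-2.36, adjusted p = 2.65e-05), Cyba (-1.69, adjusted p = 0.000765) and Ncf1 (-1.26, adjusted p = 0.000202). The higher one was Cybb (0.61, adjusted p = 0.00454), against the direction of these partners, and its call held in all 20 alternatives. It was 159 ± 3.22 TPM in double-negative, 120.5 ± 8.17 in RFP+ and 185 ± 17.9 in GFP+ cells. Relative to double-negative cells, in GFP+ cells limma called 0 of 7 (3 at an unadjusted p below 0.05; median -0.35). There Cybb was 0.22 (95% interval -0.06 to 0.49) and Ncf1 -0.35 (-0.69 to -0.01).

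Of 13 genes of lipid peroxidation and ferroptosis, the iron-dependent form of cell death that Gpx4 holds back, 11 were kept. Between RFP+ and double-negative cells 1 was higher and 6 lower (median -0.42). The iron exporter gene Slc40a1 was 30.5 ± 5.11 TPM in double-negative, 1.16 ± 0.776 in RFP+ and 11.8 ± 1.28 in GFP+ cells (-3.92, adjusted p = 5.22e-06). The transferrin receptor gene Tfrc (-2.41, adjusted p = 0.000136), the ferritin receptor gene Ncoa4 (-1.72, adjusted p = 0.000204) and Ftl1 (-0.69, adjusted p = 0.0038) were lower too. In GFP+ against double-negative cells Ftl1 and Slc40a1 were lower (median -0.28). Slc40a1 (-1.29, adjusted p = 0.0289) was lost without any 1 of the 6 libraries compared (0.0544 to 0.126), each of which left 0 of the 2 calls. The call of Slc40a1 was also lost with a pseudocount of 0.1 (0.15) and with no filter (0.0941). Between both reporter populations (GFP+ against RFP+), 4 were higher and none lower (median 0.13): Slc40a1 (2.63, adjusted p = 5.65e-05), Tfrc (1.32, adjusted p = 0.00599), Ncoa4 (0.98, adjusted p = 0.00711) and the lipoxygenase gene Alox5 (0.78, adjusted p = 0.0132, and 0.0555 without RFP+ 2B).

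**Figure D5:**
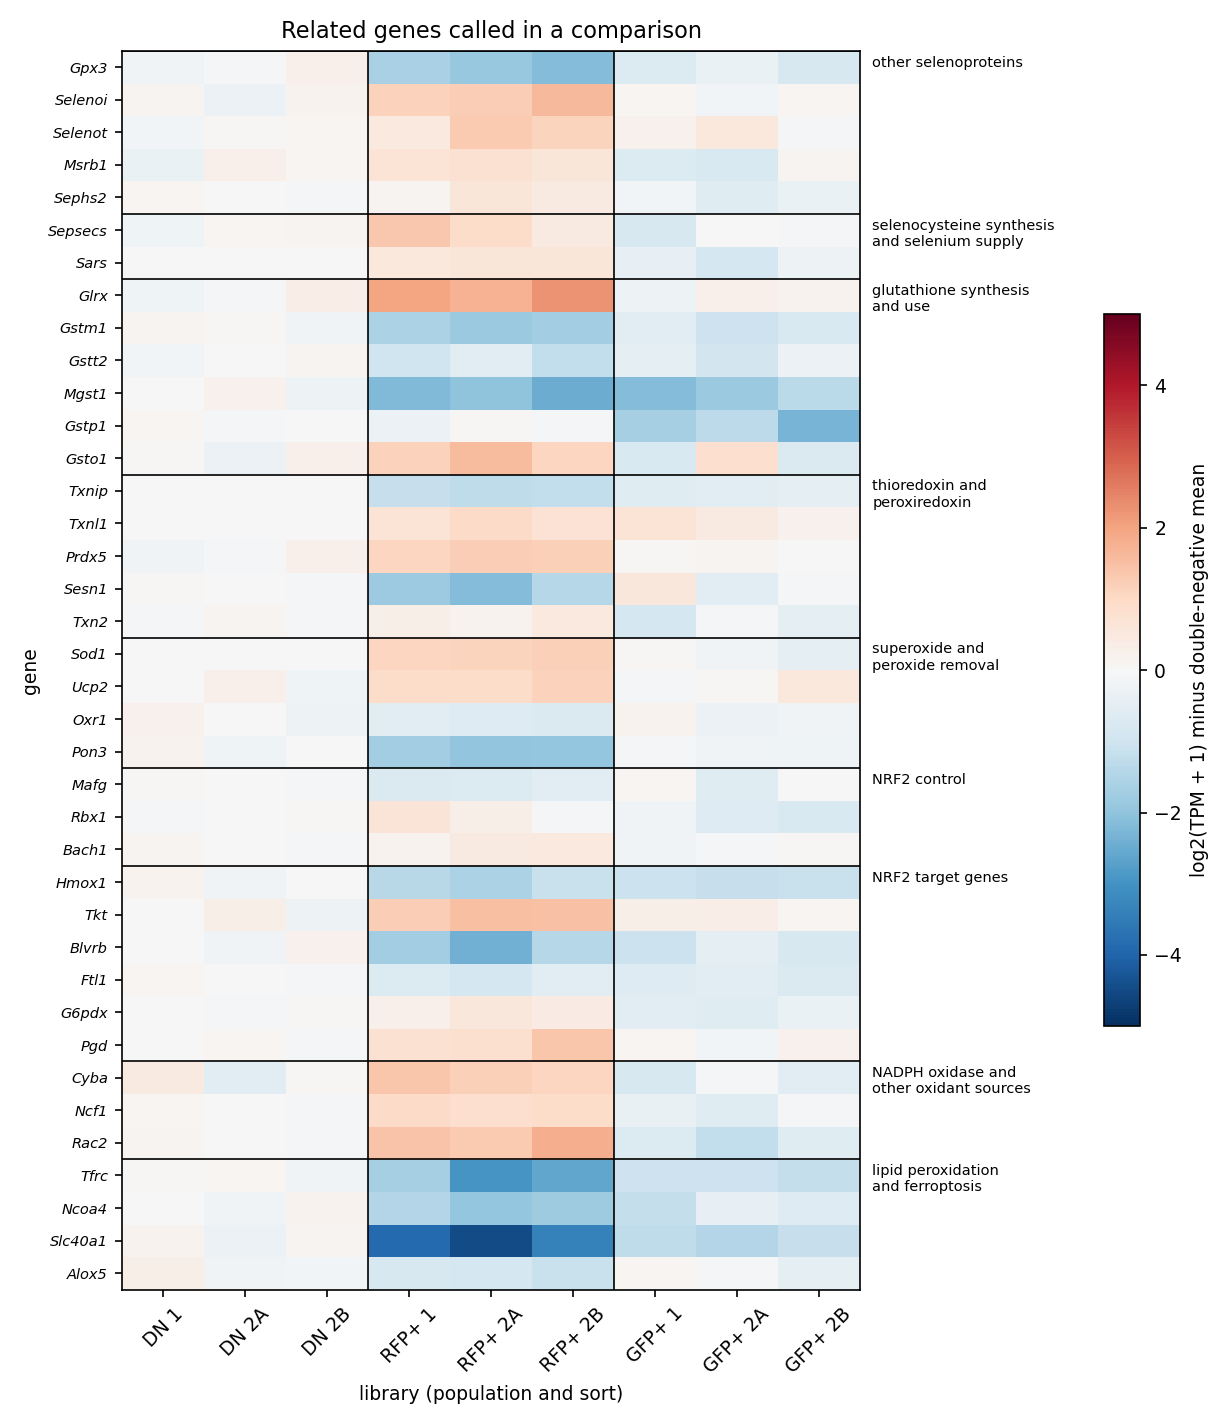
Related genes named in the text, other than Cybb and Xdh, that were called in at least 1 comparison (rows, grouped by list, each gene under its first list) in the 9 libraries (columns), coloured by log2(TPM + 1) minus the mean of the double-negative libraries. Slc40a1 has the deepest fall in the RFP+ libraries (-3.92 by the means), and Glrx the strongest rise (1.99).

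For each of the 10 genes, the 3 genes with the most similar pattern were taken by Pearson's r of log2(TPM + 1) over the 9 libraries, among 2327 genes. The 9 points share their populations, and no test was made. For Selenop they included Ifi204 (r = 0.997) and Slc40a1 (0.992). For Gpx1 they were Arpc1b (0.993), Rac2 (0.989) and Lyz1 (0.988), of which Lyz1, a lysozyme gene, was 30.4 ± 21.3 TPM in double-negative, 1046 ± 131 in RFP+ and 7.03 ± 3.55 in GFP+ cells. For Sod2 they were Atp5b (0.969), Gng10 (0.962) and Tbca (0.957). The closest gene was Ubb for Gpx4 (0.962), Rbm7 for Txnrd1 (0.939), Pikfyve for Prdx1 (0.925), Rab21 for Nfe2l2 (0.92), Mia3 for Gclm (0.899), Rab14 for Srxn1 (0.875) and Trip11 for Gsr (0.813).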

How the data were processed

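RNA of 3 sorted populations was sequenced in 9 libraries, and 1 table of the whole series was used. Its values are TPM per gene symbol, made by the authors with Salmon 0.11.3 on mm10 after bcl2fastq 2.18 and cutadapt 1.8.3, per the submitters' processing notes. The sources used here name no annotation, no way of summing to genes and no strand setting, and TPM keeps no depth, so the number of libraries sets the precision. Populations were taken from titles and column headings. The report calls the reporter populations RFP+ (CCR2 reporter) and GFP+ (CX3CR1 reporter). The description field names the other reporter population for 6 samples and was not followed.

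Values were analysed as log2(TPM + 1), with genes of at least 1 TPM in at least 3 of 9 libraries (10136), by limma 3.58.1 in R 4.3.3. The fit had a mean per population over all 9 libraries and a variance trend, the test was two-sided, p-values were adjusted by the Benjamini-Hochberg method over all genes kept, and 0.05 was the threshold. The scripts were tested on simulated data, with changes set only in genes with a mean log2 value above 3. Of simulated log2 changes of 1, 49 to 63% were called in the right direction over the 3 comparisons. Of changes of 2, 90 to 92% were. A gene not called may therefore still differ. The members and lists were chosen with earlier results of these data known. All 10 members were named in every comparison, and of each related list up to 4 called genes with the smallest adjusted p or, where none was called, the 2 with the highest mean. Cybb and Xdh were added after their values were seen. Genes similar to a member were sought among those with a mean of at least 10 TPM. Some genes that these rules name are not reported here.

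The series design states that 3 animals were each sorted into the 3 populations, so libraries with the same sort label were taken to come from 1 animal. Deviations from the population means correlated at 0.031 to 0.205 between libraries of the same sort label (9 pairs) and at -0.16 to 0.112 between different ones (18 pairs). The sort label as a block was an alternative. The other alternatives were pseudocounts of 0.1 and 5, no filter, a filter at 5 TPM, 4 scalings (median of ratios, a common listed total, the same without Siglece, Rn18s and mitochondrial genes, and quantile normalization), only the 2 populations compared, no variance trend, and each library left out in turn. Leaving out both reporter libraries of sort 2A was added after seeing the data. Coordinates, coding sequences and shared 75-base stretches come from GENCODE M21 (GRCm38, 1-based), in which 24700 of the symbols were found, and promoters from RefSeq (GRCm38.p6), with windows for 9 of the 10 members.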

Additional observations from a re-analysis of the deposited data

How the results depend on the processing

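Of the 8 calls among the 10 genes, 5 held in all 20 alternatives (Selenop and Gpx1 in both comparisons with RFP+ cells, and Sod2 in RFP+ against double-negative cells), and none of the 8 changed sign. In GFP+ against double-negative cells the count of the 10 genes called was 0 with no filter, with median-of-ratios scaling, at a common listed total and with no variance trend, and 0 to 1 with 1 library left out. All genes called there were 146 with no filter and 126 to 259 with 1 library left out: 129, 126 and 138 without double-negative 1, 2A and 2B, and 165 without GFP+ 2A. In GFP+ against RFP+ cells the count of 4 was 2 with no filter and after both rescalings, and 2 to 4 with 1 library left out. Of the 22 results not called, 8 changed sign in an alternative and 1, Prdx1 in RFP+ against double-negative cells, was called in some.

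Changes of sign concerned genes that were not called. With median-of-ratios scaling, a common listed total, the total without Siglece, Rn18s and mitochondrial genes, and quantile normalization, in this order, the log2 fold change was -0.0716, -0.0673, -0.164 and -0.0688 for Gclm in RFP+ against double-negative cells, and 0.0894, 0.289, 0.27 and 0.304 for Prdx1 and 0.125, 0.32, 0.3 and 0.266 for Nfe2l2 in GFP+ against RFP+ cells. Srxn1 was -0.0713 in RFP+ against double-negative cells under the third. In GFP+ against double-negative cells at a common listed total Selenof was 0.0353, Sod1 0.0575 and Bach1 0.188, and Bach1 was 0.0437 and 0.0431 under the third and the fourth. With 1 library left out, the ranges that crossed 0 were -0.129 to 0.4 for Srxn1, -0.0963 to 0.152 for Gclm and -0.505 to 0.0386 for Gsr in RFP+ against double-negative cells. They were -0.133 to 0.582 for Srxn1, -0.0248 to 0.334 for Gsr and -0.105 to 0.0129 for Bach1 in GFP+ against double-negative cells, and -0.205 to 0.379 for Srxn1 and -0.188 to 0.0708 for Nfe2l2 in GFP+ against RFP+ cells. The cause was not tested. Srxn1 and Gclm were not tested with the filter at 5 TPM, which removes them. With the sort label as a block the 10 genes kept their 8 calls. The adjusted p of Sepsecs was then 0.0724, of Mafg 0.0608, of Cybb 0.0582 and of Xdh 0.0705 in RFP+ against double-negative cells, of Txnip 0.054 and of Ftl1 0.059 in GFP+ against double-negative cells, and of Bach1 0.071 in GFP+ against RFP+ cells, and no other call named in the report changed.

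Leaving out RFP+ 2A and GFP+ 2A together, the libraries with high muscle markers, was chosen after seeing the data. All genes called in GFP+ against double-negative cells were then 179, and Gclm was -0.00162 and Gsr 0.0386 in RFP+ against double-negative cells. Calls lost were Sepsecs, Oxr1 and Xdh in RFP+ against double-negative cells (adjusted p = 0.0567 to 0.0898), Gstm1, Txnip and Ftl1 in GFP+ against double-negative cells (0.0542 to 0.117), and Txnrd1, Msrb1, Sephs2, Rbx1, Bach1, Alox5 and Ncoa4 in GFP+ against RFP+ cells (0.0583 to 0.167).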
